A study of Mus musculus with 73 samples.

Results

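Cytosolic ribosomal protein genes encode the protein part of the ribosome that translates nuclear-encoded mRNA. They were taken here as the genes named Rpl or Rps with a number, together with Rpsa, Rplp0, Rplp1 and Rplp2, after the S6 kinase genes and names marked as pseudogenes had been removed. Each of 3 expression tables listed 39179 genes, and 88 names matched. The 46 genes described below reached at least 10 RPKM (reads per kilobase of gene length, scaled to the depth of the library) in at least 50% of the libraries of each table, and the other 42 names did not.

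A ribosome has a small subunit, built with RPS proteins, which reads the mRNA, and a large subunit, built with RPL proteins, which joins the amino acids. Rplp0, Rplp1 and Rplp2 form the P-stalk, the arm of the large subunit that receives elongation factors. In mammals most of these mRNAs start with a run of C and T bases, the 5′ terminal oligopyrimidine (TOP) motif, through which mTORC1 signalling sets how strongly they are translated. Some subunits have a second gene (a paralog) with a related protein, such as Rpl22l1 beside Rpl22.

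RNA was sequenced from microglia, the resident macrophages of the brain, sorted from brains of C57BL/6 mice by the surface proteins CD11b and CD45. 5xFAD mice carry mutant human APP among the transgenes under the neuronal Thy1 promoter and deposit amyloid in the brain. CD33 is an inhibitory receptor for sialic acid and TREM2 an activating receptor for lipids and lipoproteins, and all knockout mice also carried 5xFAD, with no knockout group lacking the transgenes. The 73 libraries came from 10 groups. At 4 months there were 2 libraries of 5xFAD;CD33-/-;TREM2-/- (double knockout), 4 of 5xFAD;CD33-/- (CD33 knockout), 4 of 5xFAD;TREM2-/- (TREM2 knockout), 9 of 5xFAD and 7 of wild type (WT). At 8 months 1 table held 12 CD33 knockout and 11 5xFAD libraries, and another held 8 TREM2 knockout, 10 5xFAD and 6 WT libraries. The labels do not say which libraries come from separate animals, so p-values measure only the spread between these libraries, which may be technical. At 8 months 3 titles of the TREM2 table (2 TREM2 knockouts and 1 WT) carry a pair of numbers in place of 1, and number 5 recurs in another TREM2 knockout title, so pooled or shared animals cannot be told apart from separate ones. Groups are compared within a table only.

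Reads recovered from the tables ran from 28.9 to 79.7 M per library at 4 months, from 26.8 to 42.8 M in the CD33 table and from 21.2 to 51.0 M in the TREM2 table. The 46 genes together took 0.435 to 1.20% of the reads. All 10 microglial markers, such as P2ry12 and Cx3cr1, had a median above 1 RPKM in every group. Cd33 lay between 0.0526 and 0.205 RPKM in CD33 knockout libraries at 4 months, against 115.2 to 151.7 RPKM in 5xFAD. At 8 months it was at most 0.605 RPKM in CD33 knockout libraries apart from replicate 7 with 19.1 RPKM, against at least 101.6 RPKM in 5xFAD, and among the double knockouts it was 14 RPKM in replicate 1 and 0 in replicate 2. Trem2 was 29.2 to 36.3 RPKM in TREM2 knockout libraries and 26.8 and 33.2 RPKM in double knockouts, against 649.8 to 875.4 RPKM in 5xFAD at 4 months, and 13.7 to 22.4 RPKM against 627.5 to 967.8 RPKM at 8 months. At 4 months 3 libraries (double knockout replicate 1, CD33 knockout replicate 2 and TREM2 knockout replicate 9) held both Xist and Ddx3y at 1 RPKM or more. Most groups held some libraries with Xist and some with Ddx3y, in a mix that differed between groups, and sex was not a term in the tests. At 8 months 6 libraries of the CD33 table stood apart, with mitochondrially encoded transcripts summing to at least 31938 RPKM, against at most 20844 RPKM in the other 17. They are described with the CD33 comparison.

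The most abundant transcript was Rplp1, with a median of 1052 RPKM at 4 months, 1269 RPKM in the CD33 table and 1005 RPKM in the TREM2 table. Rpl8, Rpl4 and Rps15 followed, with medians of 539, 394 and 353 RPKM at 4 months. Levels of single genes spanned a wide range although the finished ribosome holds 1 copy of most of these proteins. Just inside the 10 RPKM rule lay Rps18, with medians of 11.2, 14.6 and 12.9 RPKM in the 4-month, CD33 and TREM2 tables, and Rpl18 with 11.9, 16.6 and 12.3 RPKM. Just outside it lay Rpl13 with 8.34, 11.4 and 10.1 RPKM, Rpl10 with 13.9, 6.45 and 12.2 RPKM, and Rpl35a with 7.75, 15.7 and 10.3 RPKM. Many ribosomal protein genes have near-identical processed pseudogenes, and how reads that match several places were counted is not given in the sources used here, so the level of any single gene is uncertain. All 46 had an entry in GENCODE mouse release M21, on 16 chromosomes. That release lists 45 of them as protein coding, and lists the gene called Rps4y2 in the tables (ENSMUSG00000063171, chr6:148354656-148355598, + strand, GRCm38) as Rps4l, a transcribed processed pseudogene.

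In 5xFAD microglia at 8 months, most of the 46 ribosomal protein transcripts were higher than in WT. A total of 43 of the 46 genes rose and 1 fell at an adjusted p under 0.05, and the median log2 change was 0.64. Over all 12622 genes tested in that table the median was -0.02, with 28.3% called higher and 30.5% called lower. The summed level of the 46 genes was 6624.2 ± 625.9 RPKM in 5xFAD (SD, n = 10) and 4309.4 ± 453.1 RPKM in WT (SD, n = 6). The lowest 5xFAD library had 5747.6 RPKM and the highest WT library 4985.3 RPKM, so the sums did not overlap. For 31 genes every 5xFAD library lay above every WT library, against 9.97% of all genes tested. In a bulk sample, a smaller share of cells of a type and less RNA per cell cannot be told apart. RPKM is also relative to the other transcripts of the library, so the values say nothing about RNA per cell.

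**Figure D1:**
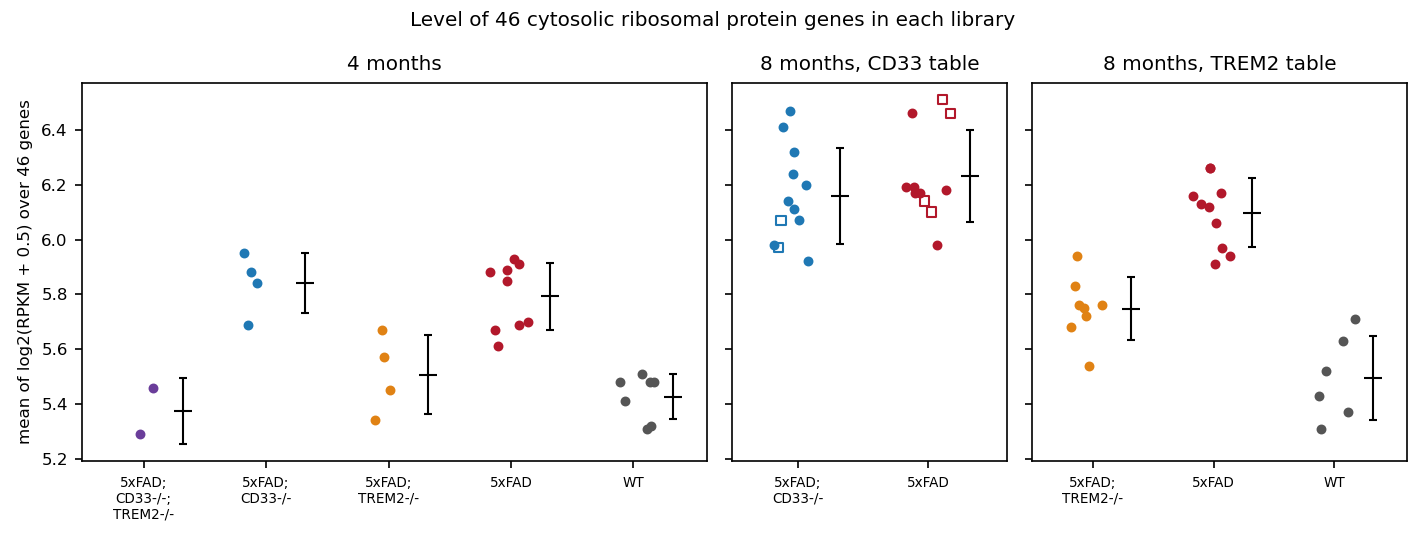
Mean log2(RPKM + 0.5) over the 46 ribosomal protein genes (vertical axis) in each library (points), by group within each of the 3 tables, with bars for the group mean ± SD. Open squares mark the 6 libraries of the CD33 table with high mitochondrially encoded RNA. In the 8-month TREM2 table the group means were 6.1 in 5xFAD and 5.75 in TREM2 knockouts, and WT lay below both.

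In the counts by subunit, here and below, 4 genes grouped as paralogs (Rpl22l1, Rps27l, Rpl7l1 and Rps4y2) were set apart. At 8 months 2 of these 4 rose and 1 fell. All 16 other small-subunit genes rose, against 28.3% of all genes called higher. Rps19, the gene most often mutated in Diamond-Blackfan anaemia in humans, ranged from 16.1 to 21.5 RPKM with a median of 19.3 RPKM in 5xFAD, against 8.19 to 12.5 RPKM in WT. No 5xFAD library came down to the WT range, and the log2 change was 0.88 ± 0.0831 (SE; limma, adjusted p = 6.08e-09). Rps15, on the head of the small subunit, averaged 453 ± 35.8 RPKM in 5xFAD and 278 ± 26.2 RPKM in WT, a log2 change of 0.71. Rps2, Rps26 and Rps14 gave 0.64, 0.64 and 0.76, each with no overlap between the groups. The least changed small-subunit gene still had a log2 change of 0.5.

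Of 23 large-subunit genes 22 rose at 8 months, and all 3 P-stalk genes did. Rpl41, which encodes the shortest ribosomal protein, ranged from 37.4 to 49.4 RPKM in 5xFAD (median over 10 libraries between 44.1 and 44.4 RPKM) and from 18.6 to 27.0 RPKM in WT. The WT libraries all lay below the 5xFAD ones, and the log2 change was 0.94 ± 0.0787 (adjusted p = 7.6e-10). Rpl32 had the same log2 change of 0.94, with 318 ± 45.6 RPKM in 5xFAD and 166 ± 30.9 RPKM in WT. Rpl23, which in human cells also binds the p53 regulator MDM2, averaged 36.6 ± 3.46 RPKM in 5xFAD and 21.1 ± 2.0 RPKM in WT, a log2 change of 0.78. Rplp0, Rplp1 and Rplp2 changed by 0.7, 0.58 and 0.6 on the log2 scale. The size of the change had little relation to a gene's level or length over the 46 genes: Pearson's r was 0.13 with the log2 mean RPKM and -0.14 with the log2 gene length, given as a description over genes that share libraries.

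Only 3 of the 46 genes did not rise at 8 months. Rpl7l1 (ENSMUSG00000063888, chr17:46773907-46782672, - strand, GRCm38), a paralog of Rpl7, fell: it ranged from 19.8 to 23.8 RPKM in 5xFAD and from 24.5 to 28.4 RPKM in WT. The groups did not overlap, as in 12.6% of all genes in this direction, and the log2 change was -0.29 ± 0.0448 (adjusted p = 8.42e-06). Rpl10a (ENSMUSG00000037805), a large-subunit gene, averaged 30.1 ± 4.17 RPKM in 5xFAD and 33.6 ± 5.21 RPKM in WT and did not pass the test (log2 change -0.15, adjusted p = 0.154). Rps4y2 averaged 20.1 ± 4.21 RPKM in 5xFAD and 22.1 ± 4.74 RPKM in WT and did not pass it either (adjusted p = 0.405). Among the other paralogs kept, Rpl22l1 rose with a log2 change of 0.82 ± 0.225 beside 0.64 ± 0.0715 for Rpl22, and Rps27l, a p53 target, rose by 0.61. The 10 RPKM rule can favour genes that are high in 5xFAD, since the CD33 table holds no WT libraries. Rpl10 missed the rule only in that table. Of the 30 tested names below the rule, 14 rose and 2 fell, with a median of 0.37. Rpsa, the laminin receptor and small-subunit protein, rose by 0.78, while Rpl10, a large-subunit protein close to the site where peptide bonds form, fell by 0.57 on the log2 scale (10.3 ± 2.19 RPKM in 5xFAD and 15.4 ± 2.25 RPKM in WT, adjusted p = 0.000652).

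**Figure D2:**
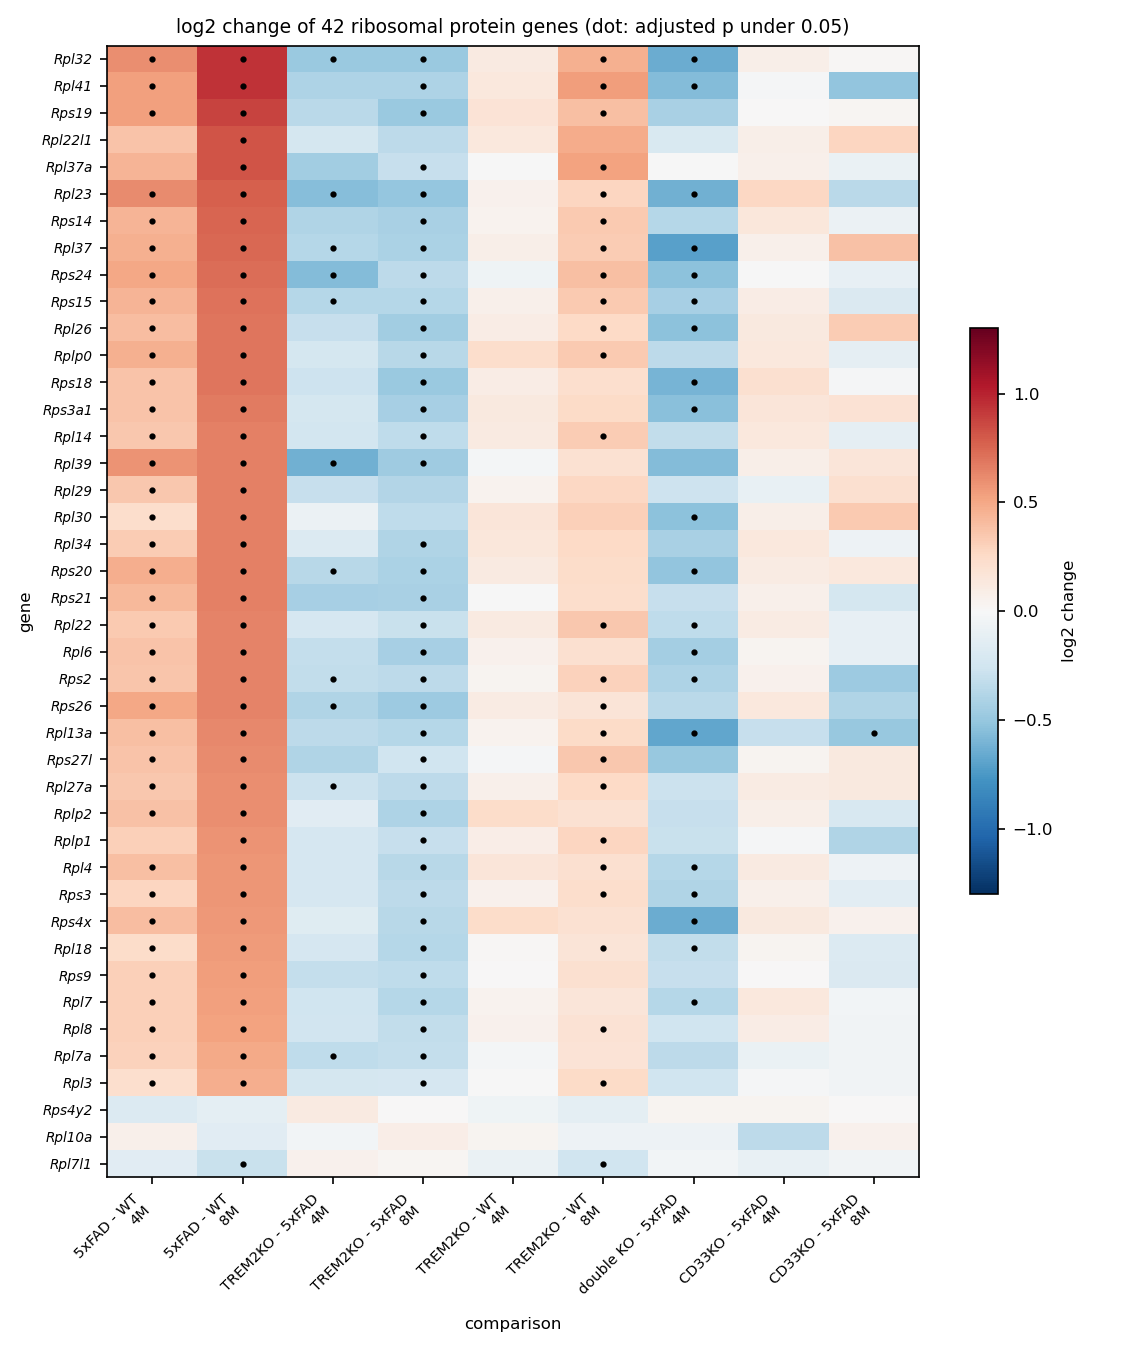
Log2 change of 42 of the 46 genes (rows, ordered by 5xFAD minus WT at 8 months) in the 9 comparisons (columns), with the colour scale giving log2(RPKM + 0.5) differences and a dot marking an adjusted p under 0.05. Of all 46, in 5xFAD against WT 43 genes at 8 months and 39 at 4 months were called higher, and in TREM2 knockouts against 5xFAD 39 at 8 months and 11 at 4 months were called lower.

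The rise was present at 4 months as well. In 5xFAD 39 of the 46 genes were higher than in WT, against 8.95% of the 13024 genes tested, and none was called lower, against 7.79%. In these limma tests 44 of the 46 had an unadjusted p under 0.05, against 30.5% of all genes, and the test on recovered reads also called 39 higher. The median log2 change was 0.37, against -0.02 over all genes. The sums ran from 4750.0 to 6105.7 RPKM in 5xFAD and from 3773.6 to 4598.5 RPKM in WT. For 17 genes the groups did not overlap, against 2.96% of all genes. Each of the 6 series numbers in the library titles that held both groups gave a positive median change, from 0.21 to 0.64, and at 8 months the 4 such series gave 0.37 to 0.91; what the series number marks is not stated.

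Rpl23 led the 4-month change, with 21.8 to 32.6 RPKM (median 25.6 RPKM) in 5xFAD, against 14.7 to 20.8 RPKM (median 16.2 RPKM) in WT. Its groups were separate, and the log2 change was 0.61 ± 0.0816 (adjusted p = 8.49e-06). Rps24, another gene mutated in Diamond-Blackfan anaemia, averaged 37.7 ± 4.03 RPKM in 5xFAD and 26.4 ± 2.09 RPKM in WT, a log2 change of 0.50. Rpl4 and Rpl32 changed by 0.39 and 0.60. All 16 small-subunit genes, 20 of 23 large-subunit genes and 1 of the 4 paralogs set apart rose. Among the 7 that did not pass were Rpl7l1, Rpl22l1, Rplp1, Rpl37a, Rps4y2 and Rpl10a. Rpl7l1 had 25.2 ± 1.75 RPKM in 5xFAD and 27.9 ± 1.82 RPKM in WT (adjusted p = 0.0506), and Rplp1 had 1140 ± 197 RPKM in 5xFAD and 914 ± 150 RPKM in WT (adjusted p = 0.0873). The changes at the 2 ages came from different libraries and correlated over the 46 genes with Pearson's r of 0.89 and Spearman's rho of 0.75. Without Rpl10a, Rps4y2 and Rpl7l1 the values were 0.71 and 0.70; genes are not independent points.

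**Figure D3:**
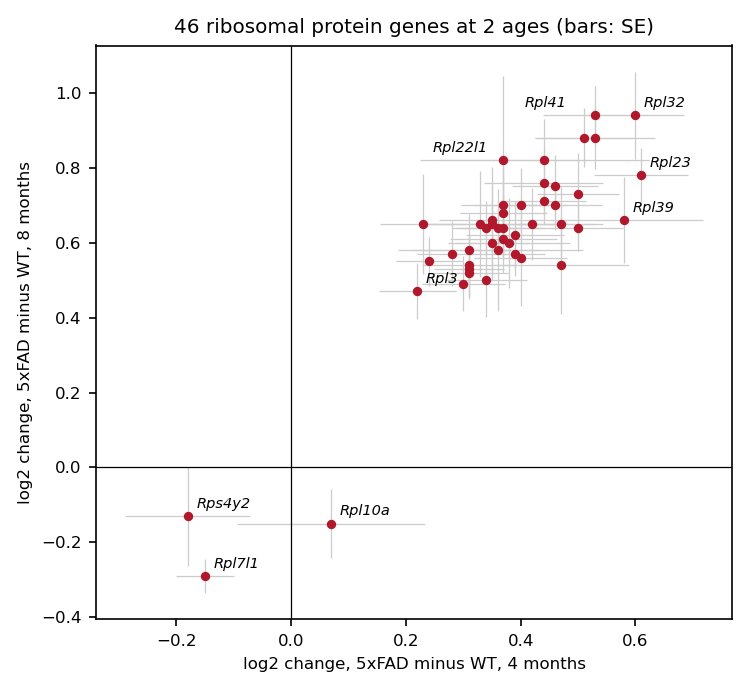
Log2 change in 5xFAD minus WT at 4 months (horizontal axis) and at 8 months (vertical axis) for the 46 genes, with bars for the SE. Most genes lie between 0.2 and 0.61 at 4 months and between 0.47 and 0.94 at 8 months, with Rps4y2, Rpl10a and Rpl7l1 below 0 at 8 months.

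Transcripts of other cell types moved with the same contrast at 8 months. All 8 endothelial markers, such as Cldn5, were higher in 5xFAD than in WT, with summed levels of 366 to 1180 RPKM in 5xFAD (median 909 RPKM) and 174 to 464 RPKM in WT (median 266 RPKM). All 6 mural and all 5 erythrocyte markers were higher as well, and 8 of 10 microglial markers were lower and 1 higher. Over all genes 28.3% were called higher and 30.5% lower. Of 7 astrocyte markers 4 were higher and 1 lower, and 2 of 2 tested neuron markers were higher. Among 6 tested neutrophil markers 0 were called, and among 6 tested macrophage and monocyte markers 1 was lower. The 1 lymphocyte marker tested was lower. At 4 months 3 of 8 endothelial markers were higher, against 8.95% of all genes, with sums of 120 to 818 RPKM in 5xFAD and 92.2 to 202 RPKM in WT. No endothelial marker had a median of 0 in any group, and the part of other cells in the ribosomal protein change was not tested. In TREM2 knockouts at 8 months the endothelial sum had a median of 909 RPKM (545 to 1420 RPKM), as in 5xFAD. All 8 endothelial markers changed upward against 5xFAD there, with a median log2 change of 0.33. Of these 0 were called, against 7.04% of all genes called higher. Oligodendrocyte markers differed in both comparisons. At 8 months 5 of 8 were lower in 5xFAD than in WT, against 30.5% of all genes, with sums of 131 to 250 RPKM in 5xFAD and 126 to 408 RPKM in WT. In TREM2 knockouts 4 of 8 oligodendrocyte markers were higher than in 5xFAD, against 7.04% of all genes, with sums of 164 to 342 RPKM. Their part was not tested either.

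TREM2 knockout microglia at 8 months had lower ribosomal protein transcripts than 5xFAD microglia. Of the 46 genes 39 fell, against 10.3% of all genes tested, and the median log2 change was -0.37, against 0.02 over all genes. None was called higher, against 7.04%, and 42 had an unadjusted p under 0.05, against 30.1%. On recovered reads 39 fell and none rose. The summed level was 5157.1 ± 390.4 RPKM in TREM2 knockouts (SD, n = 8) and 6624.2 ± 625.9 RPKM in 5xFAD (SD, n = 10), and the ranges of 4572.1 to 5733.7 RPKM and 5747.6 to 7555.7 RPKM did not overlap. All 16 small-subunit genes and all 3 P-stalk genes fell, as did 19 of 23 large-subunit genes and 1 of the 4 paralogs set apart. Each of the 6 title series that held both groups gave a negative median, from -0.53 to -0.23. This comparison uses the same 10 5xFAD libraries as the comparison with WT, so the values of both share their error.

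Rpl23 ranged from 22.1 to 30.7 RPKM in TREM2 knockouts (median 24.8 RPKM) and from 31.9 to 42.9 RPKM in 5xFAD (median 35.3 RPKM). The groups were separate, and the log2 change was -0.50 ± 0.0662 (adjusted p = 6.21e-06). Rps26, which lies where the mRNA leaves the ribosome, averaged 130 ± 11.7 RPKM in TREM2 knockouts and 180 ± 14.9 RPKM in 5xFAD, a log2 change of -0.47 (adjusted p = 2.2e-06). Rps19 changed by -0.48 and Rps15 by -0.37. In 9 genes, among them Rps26, Rpl23, Rps15, Rps19, Rpl18, Rpl8, Rpl37 and Rpl13a, every knockout library lay below every 5xFAD library, against 2.44% of all genes. Among the 7 genes that did not pass were Rpl30, Rpl29, Rpl22l1, Rpl10a, Rpl7l1 and Rps4y2. Rpl7l1, which was lower in 5xFAD than in WT, averaged 22.3 ± 1.23 RPKM in TREM2 knockouts and 21.8 ± 1.33 RPKM in 5xFAD (log2 change 0.03, adjusted p = 0.644).

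Many of the ribosomal protein genes still stood above WT in TREM2 knockouts at 8 months. Of the 46 genes 25 were higher, against 19.9% of all genes tested, and Rpl7l1 was lower, against 22.4% called lower. The median log2 change was 0.25. The summed level was 4572.1 to 5733.7 RPKM in TREM2 knockouts and 3735.3 to 4985.3 RPKM in WT, so the sums overlapped. Rpl41 ranged from 29.2 to 39.9 RPKM in TREM2 knockouts, against 18.6 to 27.0 RPKM in WT, with a log2 change of 0.54 ± 0.0823 (adjusted p = 1.9e-05). Rpl37a and Rps15 changed by 0.52 and 0.34. Groups were separate for only 3 of the 46 genes, Rpl41, Rps15 and Rpl37a. That share is no higher than the 8.6% of all genes and is not a result about the 46. Rpl7l1 changed by -0.26 (adjusted p = 0.000123). All 8 endothelial, 6 mural and 5 erythrocyte markers were also higher in TREM2 knockouts than in WT, and their part in these changes was not tested.

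At 4 months the TREM2 difference was in the same direction and rested on fewer calls. A call of lower was made for 11 genes, against 2% of all genes tested, and none was called higher, against 0.392%. The change was positive in 3 of the 46 genes, against 56.2% of all genes, and 35 had an unadjusted p under 0.05, against 11.6%. The test on recovered reads gave 14 lower and none higher. The median log2 change was -0.30, against 0.02 over all genes. The 11 were Rps24, Rpl23, Rpl32, Rps26, Rps15, Rpl37, Rps20, Rpl7a, Rpl39, Rps2 and Rpl27a. Rps24 was 22.7, 23.7, 27.2 and 27.8 RPKM in TREM2 knockouts, against 31.7 to 44.4 RPKM in 5xFAD (median 37.2 RPKM). No knockout library reached the 5xFAD range, and the log2 change was -0.56 ± 0.0852 (adjusted p = 0.000197). Rpl23 was 16.4, 16.8, 17.5 and 19.3 RPKM in TREM2 knockouts, against 21.8 to 32.6 RPKM in 5xFAD, a log2 change of -0.55 (adjusted p = 0.00111). In 5 genes the groups did not overlap, against 1.44% of all genes.

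The count at 4 months depended on single libraries. Leaving out the TREM2 knockout libraries numbered 1, 3, 7 and 9 in turn gave 2, 18, 7 and 4 genes. Leaving out the 5xFAD libraries numbered 6, 8 and 11 in turn gave 7, 7 and 19, and the count was 3 when the title series number was a term. TREM2 knockout replicate 3 had the highest summed level of the 4 knockouts, 5320.4 RPKM, above the 4750.0 RPKM of the lowest 5xFAD library, and in its title series the median change was positive (0.08), against negative medians in the other 3. Against WT at 4 months, none of the 46 genes passed in TREM2 knockouts with limma or on recovered reads, 3 had an unadjusted p under 0.05 (Rpl4, Rps4x and Rplp0), against 7.69% of all genes, and the median log2 change was 0.06. Over all genes 0.322% were called higher and 0.0768% lower there. Whether the TREM2 effect differed between the ages was not tested, since the ages are in separate tables.

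Double knockouts at 4 months had sums of 3625.7 and 4602.7 RPKM in the 2 libraries, both below the 4750.0 to 6105.7 RPKM of 5xFAD. In them 23 of the 46 genes fell, against 3.41% of all genes tested, and none was called higher with limma or on recovered reads, against 0.338%. An unadjusted p under 0.05 was found for 36, against 15% of all genes. The median log2 change was -0.38. For 27 genes both libraries lay below all 9 of 5xFAD, against 7.35% of all genes. Rpl37, a small zinc-binding protein of the large subunit, averaged 29.9 ± 3.57 RPKM in double knockouts and 49.3 ± 6.38 RPKM in 5xFAD, a log2 change of -0.71 (adjusted p = 0.000624). Rps4x, the X-linked small-subunit gene, changed by -0.64 and Rps18 by -0.60. Both double knockouts held Xist, at 24.4 and 24.5 RPKM, while the 5xFAD group mixed libraries with and without it. The count was 6 without replicate 1, 4 without replicate 2 and 2 with the title series number as a term. Replicate 1 is also the library with 14 RPKM of Cd33 and with both Xist and Ddx3y.

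In CD33 knockouts few ribosomal protein genes passed the test, 1 of the 46 at 4 months and 2 at 8 months, Rpl13a among them at 8 months. At 4 months the summed level was 5532.3 ± 293.6 RPKM in CD33 knockouts (SD, n = 4) and 5468.1 ± 546.5 RPKM in 5xFAD (SD, n = 9), and the median log2 change was 0.08. The 1 gene that passed was lower, against 3% of all genes called lower, and none was called higher with limma or on recovered reads, against 1.9%; 5 had an unadjusted p under 0.05, against 27.6% of all genes. The count was 2 without 5xFAD replicate 1, and without CD33 knockout replicate 4 it was 3, of which 2 were higher. At 8 months the sum was 7443.6 ± 1296.2 RPKM in CD33 knockouts (SD, n = 12) and 8881.9 ± 2549.3 RPKM in 5xFAD (SD, n = 11), and the median log2 change was -0.06. Without the 6 libraries that stood apart the sums were 7025.6 ± 911.7 RPKM in CD33 knockouts (SD, n = 10) and 7210.8 ± 712.0 RPKM in 5xFAD (SD, n = 7). The 2 genes that passed fell, against 0.344% of all genes, and none rose in either test, against 2.95%; 5 had an unadjusted p under 0.05, against 13.5%. All 8 endothelial markers were higher in CD33 knockouts at 8 months, with sums of 189 to 729 RPKM in CD33 knockouts and 98.3 to 341 RPKM in 5xFAD. At 4 months 5 of 8 oligodendrocyte and 1 of 8 endothelial markers were higher in CD33 knockouts, against 1.9% of all genes. There 1 of 5 erythrocyte markers, 1 of 10 microglial markers and the 1 lymphocyte marker tested were lower, against 3%. The part of other cells in these comparisons was not tested.

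Rpl13a (ENSMUSG00000074129, chr7:45125558-45128761, - strand, GRCm38) encodes a large-subunit protein that in human monocytes also blocks translation of inflammatory mRNAs after interferon. It lies 1.58 Mb from Cd33. It averaged 96.8 ± 15.2 RPKM in CD33 knockouts and 136 ± 20.8 RPKM in 5xFAD at 8 months, with each knockout library below the 5xFAD mean. The log2 change was -0.49 ± 0.0905 (limma, adjusted p = 0.00724). Libraries of the CD33 table that share a title series number correlated (median r 0.34), and the test held no term for the series. With the replicate number as a block, Rpl13a did not pass. At 4 months it was 74.3, 81.9, 83.1 and 83.8 RPKM in CD33 knockouts, against 86.9 to 115.2 RPKM in 5xFAD. The groups did not overlap, as in 0.699% of all genes in this direction, but the change of -0.30 did not pass (adjusted p = 0.0728). In double knockouts it was 53.9 and 70.7 RPKM, a log2 change of -0.68 (adjusted p = 0.00282), and -0.49 (adjusted p = 0.208) without replicate 1. 9 of the 46 genes lie on chromosome 7. Rpl18, 2.17 Mb from Cd33, had log2 changes of 0.04 at 4 months and -0.18 at 8 months in CD33 knockouts and passed in neither. The genotype of the chromosome around Cd33 was not examined here.

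**Figure D4:**
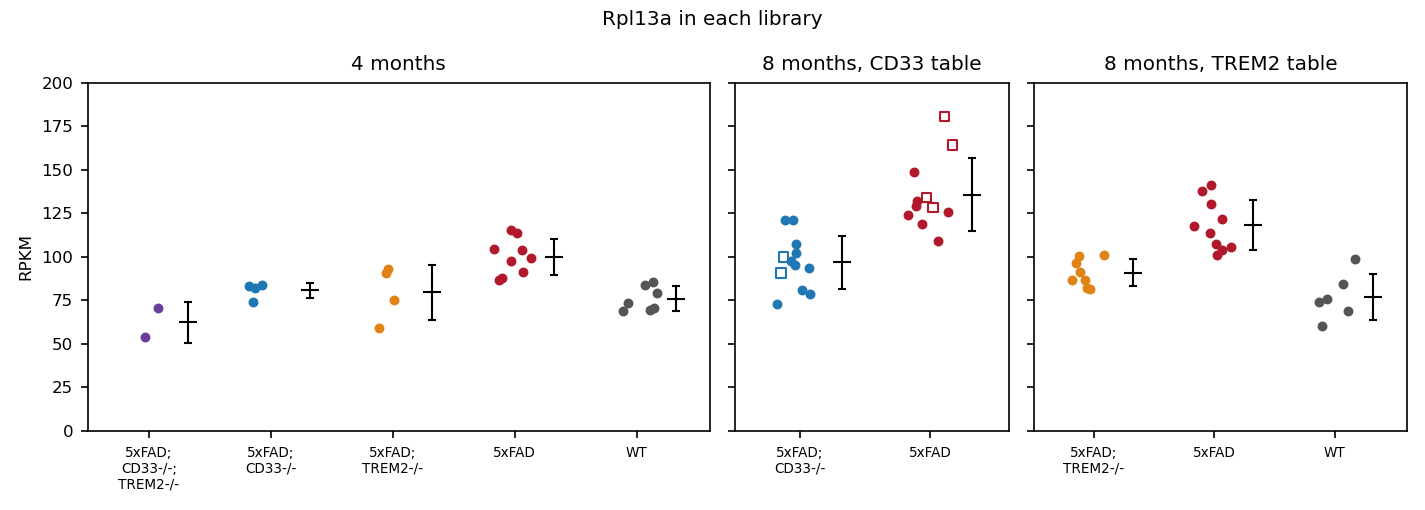
RPKM of Rpl13a in each library (points) by group and table, with bars for the mean ± SD and open squares for the CD33-table libraries with high mitochondrially encoded RNA. At 8 months the CD33 knockout libraries lie between 72.9 and 121.1 RPKM and the 5xFAD libraries of that table between 109.0 and 180.4 RPKM.

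The 6 libraries that stood apart in the CD33 table were CD33 knockout replicates 4 and 8 and 5xFAD replicates 1, 6, 7 and 9. They were all libraries of title series 15 and both 5xFAD libraries of series 17. The CD33 knockouts of series 17 were not among them, and there the mean summed level was 13203.7 RPKM in 5xFAD and 6907.5 RPKM in CD33 knockouts. All 6 carried Ddx3y, as did some of the other 17 libraries. In the 6 libraries single ribosomal protein transcripts differed widely, in both directions, from the other 17. Rpl41 ranged from 161.5 to 242.5 RPKM in the 6, against 37.8 to 76.3 RPKM in the others, and Rplp1 from 2630.3 to 4451.1 RPKM against 1023.9 to 1730.7 RPKM. Rpl37, in contrast, ranged from 7.94 to 18.6 RPKM in the 6, against 44.3 to 93.3 RPKM. Of the 46 genes 4 had a median at least 2 times that of the others (Rpl41, Rps26, Rplp1 and Rpl23) and 6 were at most 0.5 of it (Rpl37, Rpl39, Rpl30, Rps3a1, Rpl22l1 and Rps20). For 8 genes the 6 libraries all lay above the rest, and for 8 all below. These 6 were picked by their mitochondrially encoded RNA, so the values are given as a description with no test. Leaving them out gave 2 genes called in CD33 knockouts, Rpl13a among them (log2 change -0.40, adjusted p = 0.0474), with a median log2 change of 0.01.

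**Figure D5:**
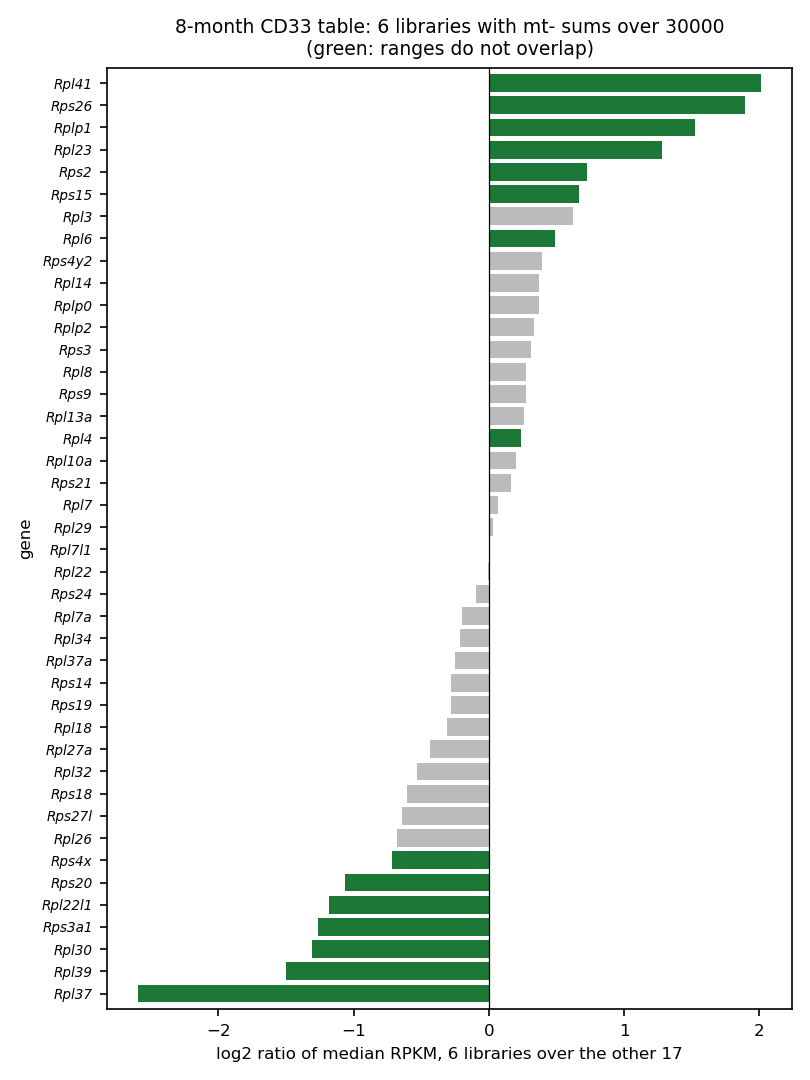
Log2 ratio of the median RPKM in the 6 libraries of the CD33 table with high mitochondrially encoded RNA over that in the other 17 libraries, for 42 of the 46 genes. Green marks the 15 of them whose ranges do not overlap, with the ratio largest for Rpl41 (4.03 on the linear scale) and smallest for Rpl37 (0.166).

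The genes that moved together were read at their start sites. RefSeq start windows (GRCm38.p6) were at hand for 32 of the 46 genes, and each was searched for the TOP-like run in the 30 bases centred on the annotated start, 15 to either side. A run of at least 8 C or T bases was present in 15 of the 32 (46.9%), against 13.9% of 27025 genes. Of the 32, 7 had more than 1 start window, and a run in any of them was counted. The following windows show members with a long run, members without one that changed as much, and members that did not rise. Capitals mark the longest C or T run where it has at least 8 bases; all are written 5′ to 3′ on the gene's strand, and RefSeq starts can differ from those used in these cells.
Rpl7a, chr2:26910792-26910821, + strand: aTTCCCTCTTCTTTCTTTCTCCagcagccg
Rpl27a, chr7:109519180-109519209, + strand: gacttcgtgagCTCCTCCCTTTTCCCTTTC
Rpl13a, chr7:45128731-45128760, - strand: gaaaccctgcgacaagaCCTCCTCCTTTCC
Rps18, chr17:33955651-33955680, - strand: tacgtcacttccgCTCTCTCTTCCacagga
Rpl4, chr9:64173372-64173401, + strand: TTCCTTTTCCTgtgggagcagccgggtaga
Rps26, chr10:128626492-128626521, - strand: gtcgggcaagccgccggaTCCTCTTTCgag
Rpl22l1, chr3:28805493-28805522, + strand: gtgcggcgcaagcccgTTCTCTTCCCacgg
Rpl23, chr11:97782425-97782454, - strand: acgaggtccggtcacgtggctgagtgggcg
Rpl41, chr10:128549154-128549183, - strand: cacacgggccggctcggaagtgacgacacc
Rpl7l1, chr17:46782642-46782671, - strand: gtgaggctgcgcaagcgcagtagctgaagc
Rpl10a, chr17:28328456-28328485, + strand: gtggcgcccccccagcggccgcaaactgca
Rpl10a, second start, chr17:28328550-28328579, + strand: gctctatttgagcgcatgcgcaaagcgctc

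The change was of like size with and without the run. At 8 months the median log2 change of 5xFAD over WT was 0.62 in the 15 genes with a run and 0.68 in the 17 without, and that of TREM2 knockouts over 5xFAD was -0.36 and -0.37. Rpl41 and Rpl23, among the most changed, had none in this window, and neither did Rpl7l1. The full 300 bases (250 before the start and 50 after it) were searched on both strands. The ETS-like motif CCGGAAG was in 14 of the 32 genes (43.8%), against 9.93% of the 27025 genes with a window. TCTCGCGA was in 6 (18.8% against 1.13%), AAGATGGC, a YY1 motif, in 3 (9.38% against 3.19%), and TATAAA in 5 (15.6% against 15.7%). Matches on the opposite strand of CCGGAAG can share bases with a C or T run. The 27025 genes were not limited to those tested in microglia. A match describes the sequence and is not a binding site.

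Other mRNAs that carry the TOP motif moved the same way as the ribosomal protein genes. Of 12 listed, 10 rose and none fell in 5xFAD against WT at 8 months, with a median of 0.47, against 28.3% of all genes called higher. At 4 months 8 rose, with a median of 0.35, against 8.95% of all genes. Eef1a1, the factor that brings charged tRNA to the ribosome, averaged 904 ± 113 RPKM in 5xFAD and 536 ± 59.1 RPKM in WT at 8 months, a log2 change of 0.75 (adjusted p = 1.02e-07). Gnb2l1, also named Rack1, a scaffold on the small subunit, gave 0.75. In TREM2 knockouts against 5xFAD at 8 months 8 of the 12 fell, with a median of -0.28, against 10.3% of all genes called lower, and at 4 months none passed with limma (7 with an unadjusted p under 0.05, median -0.25). Eef1a1 averaged 676 ± 67 RPKM in TREM2 knockouts, a log2 change of -0.42 against 5xFAD (adjusted p = 0.000509). Of the named ribosomal protein pseudogenes, 34 of 222 were tested at 8 months: 25 rose in 5xFAD against WT with a median of 0.67 (28.3% of all genes), and 18 fell in TREM2 knockouts against 5xFAD with a median of -0.40 (10.3% of all genes). Their reads and those of the parent genes cannot be told apart here.

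In 5xFAD against WT the other translation lists were mixed. Eef1a1 and Eef2 stand on both the TOP list and the elongation list, so those lists are not separate. Of 37 initiation factors 12 rose and 6 fell in 5xFAD against WT at 8 months. Eif4b, a helper of the mRNA-unwinding helicase, averaged 89.9 ± 7.84 RPKM in 5xFAD and 57.5 ± 1.65 RPKM in WT (log2 change 0.64), and the eIF3 subunit Eif3f gave 0.57. Of 12 elongation and termination factors 6 rose, Eef2 among them (0.54), and 2 fell. Eef2k, the kinase that inactivates the Eef2 protein, averaged 20.8 ± 3.66 RPKM in 5xFAD and 44.0 ± 1.71 RPKM in WT, a log2 change of -1.08 (adjusted p = 3.02e-09). Ribosome biogenesis genes had a median of 0.04, with 9 of 39 higher and 3 lower, and mitochondrial ribosomal protein genes a median of 0.11, with 23 of 72 higher and 7 lower. In TREM2 knockouts against 5xFAD at 8 months most calls were lower. Of 37 initiation factors 9 fell and 0 rose, and of 12 elongation and termination factors 5 fell and 1 rose. Of 72 mitochondrial ribosomal protein genes 13 fell and 0 rose, and of 39 ribosome biogenesis genes 3 fell and 1 rose. Over all genes 10.3% were called lower and 7.04% higher there. Shares near the 28.3% and 30.5% of all genes called at 8 months are not a result about a list.

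Of 23 genes of mTORC1 control, 5 were higher and 9 lower in 5xFAD than in WT at 8 months. Over all genes 28.3% were called higher and 30.5% lower there. Counts near those shares, here and in the stress response and immediate-early lists below, are not a result about a list. Rptor, the mTORC1 scaffold, was lower in 5xFAD than in WT, with a log2 change of -0.58 (adjusted p = 9.64e-08). Myc, a transcription factor known to drive ribosome genes, averaged 60.5 ± 8.24 RPKM in 5xFAD and 93.8 ± 8.14 RPKM in WT, a log2 change of -0.64, and 80.5 ± 4.75 RPKM in TREM2 knockouts, a log2 change of 0.42 against 5xFAD. The part of Myc in the ribosomal protein change was not tested. Of 14 integrated stress response genes 5 rose and 6 fell. The serine synthesis enzyme Psat1 averaged 43.5 ± 11.2 RPKM in 5xFAD and 10.4 ± 1.62 RPKM in WT, a log2 change of 1.99 (adjusted p = 1.11e-10). Of 14 immediate-early genes, which tissue dissociation induces, 2 rose and 6 fell, with Fos at 1110 ± 176 RPKM in 5xFAD and 1700 ± 95.5 RPKM in WT, and their part in the ribosomal protein change was not tested. Disease-associated microglia genes such as Cst7 rose in 5xFAD against WT, 20 of 20 at both ages. The shares over all genes were 8.95% at 4 months and 28.3% at 8 months. At 8 months 20 of 20 fell in TREM2 knockouts against 5xFAD, against 10.3% of all genes, with Trem2 itself on that list.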

How the data were processed

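Deposited values were RPKM, made by the authors from gene counts. Per the submitters' processing notes, STAR, HTSeq and edgeR were used with mm10 (GRCm38), and the sources used here do not give versions, annotation or strand setting. Per the labels' protocols, libraries were stranded mRNA, read from 1 end. Multiplying RPKM by gene length recovered whole reads for 100% of the values (tolerance 0.05 reads), after a factor per library of 0.8435 to 1.096. Over 279 pairs of libraries within groups, chi-square per degree of freedom was at least 5.25, so no pair agreed within counting error.

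Tests used limma 3.58.1 (R 4.3.3; trend, robust, two-sided) on log2(RPKM + 0.5), which understates changes of low genes. A gene was tested where its RPKM reached 1 in a number of libraries equal to the size of the table's smallest group, in 1 fit per table with Benjamini-Hochberg adjustment over all of them. An adjusted p under 0.05 was a call. The fit was tested on simulated data. Alternatives changed the pseudocount, the filter, the scaling, weights, covariates or libraries, or used limma's voom on the recovered reads with trimmed-mean (TMM) scaling.

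The ribosomal protein genes and the other lists were chosen with earlier results of these data known. Genes named with values were, per comparison, up to 12 called members with the smallest p in each direction (the 5 smallest where fewer than 5 were called), the most and least abundant, paralogs, P-stalk genes, Rpsa, those beside the RPKM limit and, from other lists, up to 3 with the smallest p. Rpl10a, Rps4y2, Rpl18, Rpl13a and the members of other lists outside that rule were named after their values were seen. Some genes that the rule names are not reported here by name; counts, medians and sums include them.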

Additional observations from a re-analysis of the deposited data

Results flagged for a closer look

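Over the 29 named members and their sum, 210 sets of values from groups of 4 to 10 libraries were searched for a library far from the rest of its group, and 8 were found; chance gives about 1 in 20. At 4 months these were CD33 knockout replicate 4 with 26.4 RPKM of Rpl23 (32.8 to 33.9 RPKM in the other libraries of the group), and TREM2 knockout replicate 3 with 40.4 RPKM of Rpl30 (34.1 to 34.6 RPKM). The 5xFAD replicate 4, at 79.7 M reads the deepest library, had 36.3 RPKM of Rpl37a (12.6 to 20.3 RPKM) and 48.9 RPKM of Rpl39 (20.3 to 33.7 RPKM). WT replicate 13 had 87.0 RPKM of Rps26, against 100.8 to 110.9 RPKM.

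In the 8-month TREM2 table, 2 TREM2 knockout libraries stood out: replicate 1 with 9.99 RPKM of Rpl18 (11.6 to 13 RPKM in the others) and replicate 3 with 24.9 RPKM of Rpl7l1 (20.8 to 22.6 RPKM). The 5xFAD replicate 2 had 21.4 RPKM of Rps27l, against 15.4 to 18.4 RPKM. The 4-month TREM2 knockout replicate 3 is the library whose summed level, 5320.4 RPKM, reached the 5xFAD range.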

How the results depend on the processing

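Counts of ribosomal protein genes called moved most in the small 4-month groups. For CD33 knockouts against 5xFAD the count of 1 became 4 with array weights and 3 with the title series number as a term; without CD33 knockout replicate 4 it was 3, of which 2 were higher, a reversed balance, and leaving out single libraries gave 1 to 3. For TREM2 knockouts against 5xFAD the count of 11 was 7 with no filter on low values, 3 with the title series number, 3 with only the 2 groups fitted and 2 to 19 without single libraries. For double knockouts the count of 23 was 2 with the title series number, 10 with only the 2 groups fitted and 4 to 23 without single libraries. Without the 3 libraries that held Xist and Ddx3y, an alternative chosen after seeing the data, the count was 3 for TREM2 knockouts and 5 for double knockouts. Leaving out the CD33-table libraries with high mitochondrially encoded RNA, also chosen after seeing the data, gave 2.

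Replicate numbers recur across groups, but the correlation of deviations of same-numbered libraries was over 0.1 in 5 of 22, 4 of 11 and 10 of 19 pairs in the 4-month, CD33 and TREM2 tables. Since it was not over 0.1 in every pair, the numbers were not taken to pair samples. Libraries that share a title series number correlated over 0.1 in 11 of 25, 13 of 18 and 16 of 26 pairs (median r 0.07, 0.34 and 0.19). With the replicate number as a block, the count was 17 for TREM2 knockouts at 4 months and 1 for CD33 knockouts at 8 months, where Rpl13a had an adjusted p of 0.0908.

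Without single libraries the counts were 36 to 40 (5xFAD against WT, 4 months), 44 to 45 (8 months), 34 to 42 (TREM2 knockouts against 5xFAD, 8 months), 18 to 32 (against WT), 2 to 2 (CD33 knockouts, 8 months) and 0 to 0 (TREM2 knockouts against WT, 4 months). Of 2020 alternative values for 78 named gene changes, 1900 kept direction and call, 114 lost the call, 6 gained it and 0 changed sign. The causes were not tested. Counting error weighs most on the names below the 10 RPKM rule, and reads shared with pseudogenes were not resolved.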
